A study of Xenopus laevis with 4 samples.

Results

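Collagens, nidogen, integrins and matricellular proteins were measured by 68 of the 15491 probesets tested on the 4 arrays. They were chosen by gene name: a probeset was a member when its single symbol began with or matched one of a set of names for collagen, laminin and integrin chains, fibronectin, tenascin-C, vitronectin, versican, SPARC, CCN proteins, periostin, fibrillins, fibulins, elastin, decorin, lumican, biglycan, nidogens, lysyl oxidases and TGFBI. The rule uses no measured value, but it was set with earlier results of these data known. The rule leaves out col2a1 and col9a1, which are given below among the cartilage markers. The 68 probesets stand for 39 genes, with the L and S copies of a gene counted as 1, and 20 of those genes had more than 1 probeset. Of 107 matrix and integrin genes listed by role, 38 had a member probeset and 69 did not, and 0 members carried a laminin symbol. The 195 probesets with several symbols were not searched for these names. One further member, itgb1bp2.L (melusin, a muscle protein that binds the tail of an integrin), was matched only because its symbol starts like that of an integrin.

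The tissue was the blastema or pseudoblastema at the end of Xenopus laevis hindlimbs amputated at NF stage 52, collected 3 days later. Each of 4 pools of 20 limbs was read on its own Affymetrix array, with 2 pools of WT blastemas and 2 of N1 pseudoblastemas, so that n = 2 in each group throughout. N1 tadpoles carried Noggin, a secreted inhibitor of BMP ligands, under the Hsp70 heat shock promoter, linked to GFP under the lens promoter γ-crystallin. The line came from 1 insertion in 1 founder, and the WT tadpoles were siblings without the transgene. Both groups received the same heat shocks of 30 minutes at 34°C, up to 3 hours before amputation and again at 24 and 48 hours after it, so that WT blastemas are heat shocked controls and not untreated limbs. The promoter is not restricted to a limb cell type.

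The extracellular matrix is the meshwork of secreted proteins in which the cells of a limb bud sit. Fibrillar collagens give it tensile strength, type IV collagen, laminin and nidogen build the basement membrane under the epidermis, and matricellular proteins such as tenascin-C, SPARC and the CCN proteins alter how cells hold on to it. Integrins are the receptors that do the holding: an alpha and a beta chain pair at the cell surface, bind fibronectin, collagen or laminin outside and the actin skeleton inside. In amphibian limb regeneration, a provisional matrix rich in fibronectin and tenascin-C is known to form in the blastema under the wound epidermis.

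Probesets of 1 gene are told apart by the end of their identifiers, such as S1_at or A1_at. Signals are MAS5 values, a linear brightness for each probeset scaled by the authors, with a trimmed mean of 500 on WT replicate 1. Differences are WT minus N1 on the log2 scale, so a negative value is higher in N1, and were tested with limma. Adjusted p-values are over all 15491 probesets, with a threshold of 0.05. Over the whole array, 2 probesets were higher in WT and 17 higher in N1 by adjusted p, and 664 and 1057 by an unadjusted p under 0.05. With each array centred on its median the unadjusted counts were 1028 and 762, and the members higher in N1 at that level, described next, were 14 in place of 17. The median difference of all probesets was -0.07, and log2 signals correlated at 0.953 for the WT pair and at 0.942 for the N1 pair. The median level over the array, a signal of 165, stands in for detection, and members below it are called dim. Of the limb mesenchyme markers, 12 of 15 genes had probesets and 8 of their 28 probesets reached that level, hand2.S among them. It read 3638 and 3522 in WT and 3098 and 4419.6 in N1. Over all probesets 4.29% were higher in WT and 6.82% higher in N1 at an unadjusted p under 0.05 in limma. Of the 28, 2 (7.14%) were higher in WT and 1 (3.57%) higher in N1 by that p, counts too small to set the list apart from the array. Those higher in WT were lhx9.L S1_at, at 409 and 511 in WT and 225 and 269 in N1, and hoxa11.S S1_a_at, at 709 and 964 in WT and 309.8 and 684 in N1. The one higher in N1 was hoxd13.S, at 106 and 141 in WT and 269.6 and 209 in N1. RNA came from whole blastemas or pseudoblastemas with all their cell types, so that fewer cells of a type and less RNA per cell cannot be told apart.

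Fibronectin, biglycan, nidogen-2, CCN2, TGFBI, type III collagen and integrin alpha 3 had higher signals on both N1 arrays than on both WT arrays, at ratios of mean signal from 1.51 to 2.91 for their probesets at or above the median level. SPARC had that order too, at 1.47 for sparc.L and 1.26 for sparc.S, and so did col18a1.S at 1.55 but not col18a1.L. Type I and type VI collagen, fibulin-1, fibrillin-3 and integrin beta 1 had unadjusted p-values of 0.05 or more in limma. Among these, the type I probeset col1a1.S S2_at also had both N1 arrays above both WT arrays. Whether these genes differ in response from those named before them was not tested. No single member passed the adjusted threshold in limma: 0 of 68 did in either direction, where 0.0129% of all probesets were called higher in WT and 0.11% higher in N1. At an unadjusted p under 0.05, 17 of the 68 members (25%), from 12 genes, were higher in N1, against 6.82% of all probesets. In the other direction 0 of 68 were higher in WT at that level, against 4.29% of all probesets. That count depends on the rule, because the cartilage collagens col2a1.S and col9a1.L S1_at, which it leaves out, were higher in WT at that level. By the members' differences alone, 54 of 68 (79.4%) leaned toward N1, against 55.9% of all probesets. Both N1 arrays exceeded both WT arrays for 27 of 68 (39.7%), against 24.2%, and the reverse was found for 3 (4.41%), against 17.9%.

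The lean was clearest among the members that were well above the dim end of the array. Of 29 members at or above the median level, 13 (44.8%), from 9 genes, were higher in N1 at an unadjusted p under 0.05, against 8.31% of all probesets at or above that level, and 0 were higher in WT, against 7.02%. The col2a1.S and col9a1.L S1_at probesets, left out by the rule and higher in WT, also lie at or above the median level. By the members' differences alone 26 of the 29 (89.7%) leaned toward N1, against 49.5% of such probesets. Both N1 arrays lay above both WT arrays for 17 of the 29 (58.6%), against 23.2% of all probesets at that level. The opposite order was found for 1 of the 29 (3.45%), against 24.1%. The median difference of the 29 was -0.45, where that of all 7746 probesets at or above the median level was 0.00. For all 68 members the median was -0.38, and without the 4 fibronectin probesets it was -0.33. Counted as 1 probeset a gene, the brightest of each, 9 of 39 genes (23.1%) were higher in N1 at an unadjusted p under 0.05, with a median of -0.36. The probesets of a gene and genes that the same cells express are not independent, so these shares are a description.

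**Figure D1:**
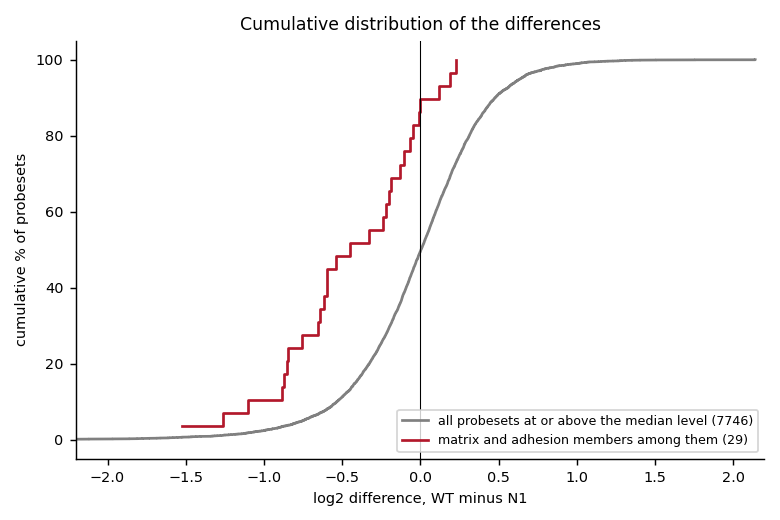
Cumulative share of probesets (vertical axis, %) by log2 difference, WT minus N1 (horizontal axis), for the 29 members at or above the median level in red and all 7746 probesets at or above it in grey. The red line lies to the left of the grey, with a median of -0.45 against 0.00.

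**Figure D2:**
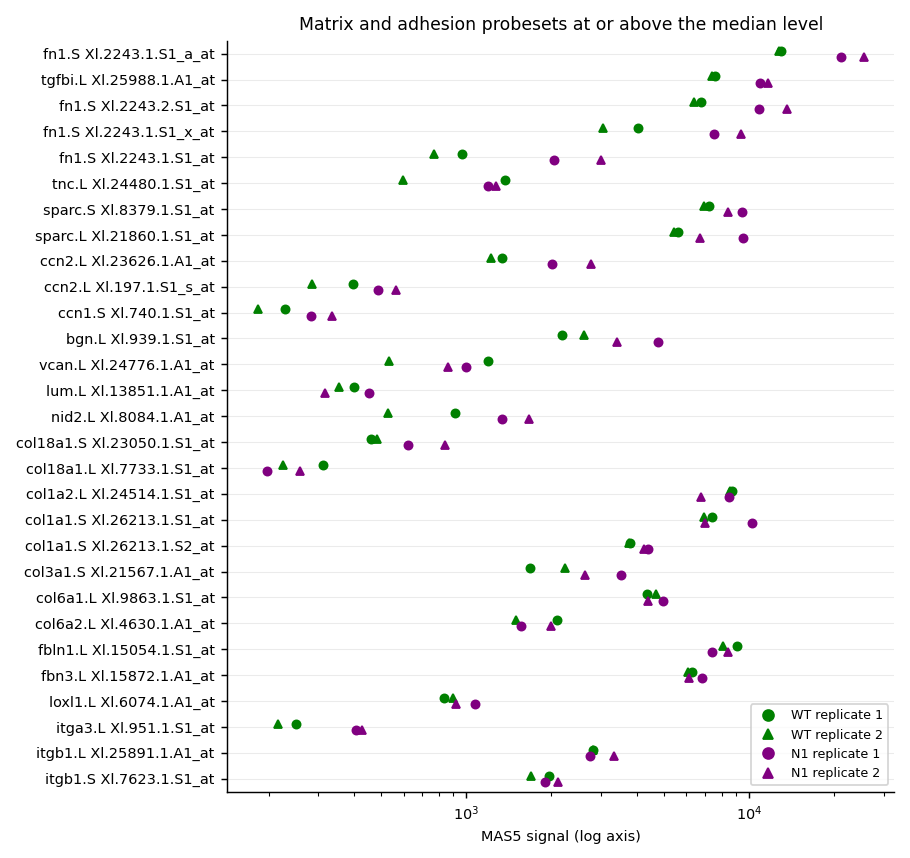
MAS5 signal on each of the 4 arrays (horizontal log axis) for the 29 members at or above the median level, ordered by role. Green marks are WT and purple marks N1, with circles for replicate 1 and triangles for replicate 2. Both purple marks lie to the right of both green marks for 17 of the 29.

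**Figure D3:**
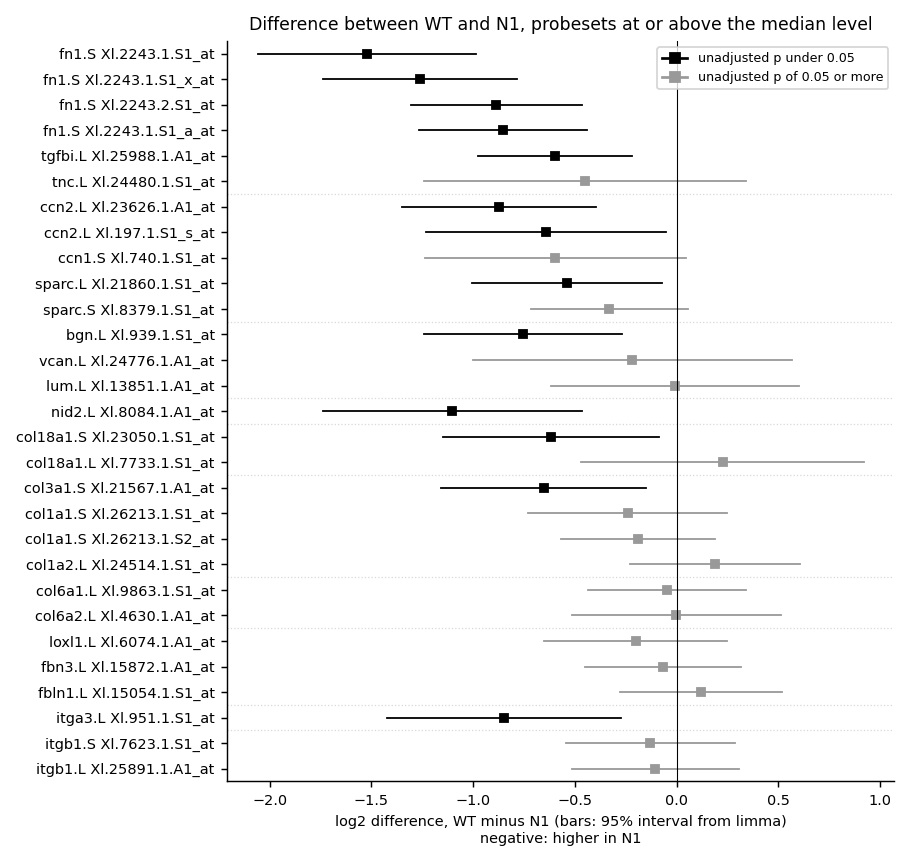
The log2 difference, WT minus N1, with its 95% interval from limma, for the same 29 members. Black marks have an unadjusted p under 0.05 and grey marks do not, and all 13 black marks lie to the left of 0.

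Markers of other cell types differed between the same arrays. Beside the counts for these and later lists, 6.82% of all probesets were higher in N1 and 4.29% higher in WT at an unadjusted p under 0.05 in limma. Of 21 epidermis probesets, 8 were higher in N1 and 1 higher in WT at an unadjusted p under 0.05, and the summed signal was 29780 and 24293 in WT and 35010.3 and 43896 in N1. An epithelial adhesion molecule, epcam.L, read 1657 and 1462 in WT and 3492 and 3697 in N1. The 1 higher in WT, krt19.S, read 616 and 470 in WT and 219 and 207 in N1. Its other copy, krt19.L, had the opposite order, at 444 and 313 in WT and 1355 and 883 in N1. The dim krt18.1.L, higher in N1, was the 1 probeset of the 21 that passed the adjusted threshold, at 0.0258 in limma. The brightest of the 21, krt12.5.S, weighs most in the sum and overlapped, at 12601.5 and 9652 in WT and 11940 and 15047 in N1. Epithelium also expresses integrin alpha 3 and alpha 6. Pigment cell markers had 3 of 4 probesets higher in N1, with sums of 1326 and 1407 in WT and 4421 and 1879 in N1. Red cell markers had 2 of 3 higher in N1, with sums of 11479 and 9108 in WT and 22401 and 27503 in N1. Skeletal muscle markers had 3 of 12 higher in N1, all 3 dim, with sums of 3066 and 2835 in WT and 3956 and 3497 in N1. Among these, tnnc2.L, the calcium-binding troponin of fast muscle, read 5.92 and 2.99 in WT and 141 and 36.0 in N1. Only 2 of the 12 reached the median level, without an unadjusted p under 0.05 in limma. They were ckm.L A1_at, at 1342 and 1308 in WT and 1384 and 1671 in N1, and atp2a1.S A1_at, at 1252 and 1080 in WT and 975 and 1356 in N1. Leucocyte markers had 0 of 8 probesets at an unadjusted p under 0.05 in limma and sums of 1914 to 2298 over the 4 arrays. Endothelial markers had 1 of 3, higher in WT. Cartilage sums were 2887 and 2142 in WT and 1546 and 1709.5 in N1. The part of these cell types in the matrix and integrin differences was not tested.

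Fibronectin, the glycoprotein that cells assemble into fibrils and grip through integrins, had 4 probesets, all for the S copy. The one whose probes match several transcripts of the gene, fn1.S 1.S1_a_at, read 12927 and 12730.5 in WT and 21105 and 25524 in N1. Its groups did not overlap, with mean signals of 12829 ± 139 (SD, n = 2) in WT and 23314 ± 3125 (SD, n = 2) in N1. That is 1.82-fold higher in N1, a log2 difference of -0.86 ± 0.18 (SE), at an adjusted p of 0.140 in limma. A second sequence of the gene, fn1.S 2.S1_at, read 6788 and 6388 in WT and 10845 and 13664 in N1, a ratio of 1.86 and a log2 difference of -0.89 ± 0.18 (SE), at an adjusted p of 0.138 in limma. Again both N1 arrays were above both WT arrays.

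The other 2 fibronectin probesets gave the larger differences. For fn1.S 1.S1_at the WT arrays read 966 and 772 and the N1 arrays 2049 and 3001, so that the lowest N1 signal was above the highest WT signal. The ratio was 2.91 and the log2 difference -1.52 ± 0.24 (SE, 95% interval -2.06 to -0.99), with an unadjusted p of 0.000151 and an adjusted p of 0.0616 from limma, the smallest of any member. For fn1.S 1.S1_x_at, whose probes can also bind other transcripts, the signals were 4059.9 and 3032 in WT and 7525 and 9395 in N1. This was 2.39-fold higher in N1 with no overlap, at an adjusted p of 0.0720 from limma. With each array left out in turn, the log2 difference ran from -1.8 to -1.25 for fn1.S 1.S1_at and from -1.47 to -1.05 for fn1.S 1.S1_x_at. It ran from -0.992 to -0.718 for fn1.S 1.S1_a_at and from -1.05 to -0.72 for fn1.S 2.S1_at. Whether the 4 passed the adjusted threshold depended on the array left out, and so did the number of calls over all probesets. With either WT array left out, fn1.S 1.S1_a_at lost its unadjusted p under 0.05 in limma, while the other 3 kept theirs.

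TGFBI is a secreted protein that is induced by TGF-beta and links collagen to integrins. The tgfbi.L probeset read 7589 and 7385 on the WT arrays and 10979 and 11703 on the N1 arrays. The pairs were close within each group and did not overlap, at 7487 ± 144 (SD, n = 2) against 11341 ± 512 (SD, n = 2). The ratio was 1.51, at an adjusted p of 0.233 in limma. The unadjusted p was 0.00628 with all arrays but 0.113 without WT replicate 1 and 0.135 without WT replicate 2, again from limma.

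Tenascin-C, an anti-adhesive glycoprotein of wounds and growing mesenchyme, did not separate the groups. The brighter tnc.L probeset read 1371 and 595 in WT and 1197 and 1269.8 in N1, so that the N1 signals lay between the WT ones. The WT arrays differed from each other by 1.20 on the log2 scale, more than the group difference of -0.45 (95% interval -1.24 to 0.34, adjusted p of 0.679 from limma). Without WT replicate 1 the difference was -1.05 and without WT replicate 2 it was 0.15, so its direction turns on 1 array. The dim second tnc.L probeset read 166 and 131 in WT and 178 and 129 in N1. Vitronectin, a plasma and matrix protein that binds integrins, was below the median level, with vtn.L at 27.6 and 38.2 in WT and at 50.5 and 5.22 in N1.

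SPARC and the CCN proteins are matricellular: they sit in the matrix and tune adhesion, collagen assembly and growth factor activity without building fibres themselves. All 5 of their probesets at or above the median level had both N1 arrays above both WT arrays, against 23.2% of all probesets at that level. Of the 5, 3 had an unadjusted p under 0.05 in limma, where 8.31% of all such probesets were higher in N1. CCN2 (connective tissue growth factor), which is induced by TGF-beta and by stretch, read 1339.7 and 1224 in WT and 2004 and 2751 in N1 for ccn2.L A1_at. The groups did not overlap and the ratio was 1.85, with a log2 difference of -0.87 ± 0.21 (SE) and an adjusted p of 0.181 from limma. A second probeset, ccn2.L S1_s_at, read 397 and 284 in WT and 487 and 563 in N1, 1.54-fold higher in N1. Its unadjusted p from limma was 0.0364, but 0.266 without WT replicate 2 and 0.110 without N1 replicate 2.

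CCN1, an immediate early relative of CCN2, read 228 and 183 in WT and 283 and 336 in N1 for ccn1.S. Its groups did not overlap but the unadjusted p from limma was 0.0643. CCN3, another member of the family, was dim on every array, with 12.2 and 16.1 in WT and 9.82 and 42.8 in N1 for ccn3.L. SPARC, which binds collagen and is needed for its orderly assembly, was measured for both copies. The L copy, sparc.L, read 5594 and 5422 in WT and 9517 and 6729 in N1, a ratio of 1.47 with an unadjusted p of 0.0282 and an adjusted p of 0.383 from limma. Both N1 arrays were higher, but they differed from each other more than the WT arrays did. Its unadjusted p was 0.150 without WT replicate 1 and 0.183 without WT replicate 2 (limma). The S copy, sparc.S, read 7227 and 6919 in WT and 9406 and 8413 in N1, at a ratio of 1.26 with an unadjusted p of 0.0837 from limma. Its groups did not overlap either.

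The 3 proteoglycans did not share an order. Biglycan, a small leucine-rich proteoglycan that binds collagen and growth factors, read 2174 and 2614 in WT and 4747 and 3403 in N1 for bgn.L. Both N1 arrays were above both WT arrays, at 4075 ± 950.2 (SD, n = 2) against 2394 ± 311 (SD, n = 2). The ratio was 1.70 and the log2 difference -0.75 ± 0.21 (SE), at an adjusted p of 0.242 in limma. The unadjusted p was 0.00699 with all arrays and 0.0902 without WT replicate 1 (limma). With each array left out in turn, the log2 difference ran from -0.994 to -0.513 for bgn.L and from -0.789 to -0.289 for sparc.L.

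Lumican, another small leucine-rich proteoglycan, which spaces collagen fibrils, read 401 and 356 in WT and 454 and 317 in N1 for lum.L. The N1 signals spanned the WT ones, and the log2 difference was -0.01 with a 95% interval of -0.62 to 0.60. Versican, the large hyaluronan-binding proteoglycan of embryonic mesenchyme, read 1190.4 and 535 in WT and 997 and 865 in N1 for vcan.L. As with tenascin-C, the N1 arrays lay between the WT arrays. The difference was -0.22 with all arrays, -0.80 without WT replicate 1 and 0.36 without WT replicate 2.

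In the basement membrane set, nidogen-2, which links the laminin and type IV collagen networks, was the member with the largest ratio outside fibronectin among those at or above the median level. The nid2.L probeset read 913 and 527 in WT and 1334 and 1666 in N1. The groups did not overlap, although the WT arrays differed by 0.79 on the log2 scale. The ratio of mean signals was 2.08 and the log2 difference -1.10 ± 0.28 (SE, 95% interval -1.74 to -0.47), with an unadjusted p of 0.00373 and an adjusted p of 0.204 from limma. Its unadjusted p stayed under 0.05 when each of the 4 arrays was left out in turn.

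Type XVIII collagen, the basement membrane collagen whose end fragment is endostatin, had a probeset for each copy. The S copy, col18a1.S, read 459 and 484 in WT and 622 and 840.2 in N1, a ratio of 1.55 with an unadjusted p of 0.0279 from limma. Its groups did not overlap, but the unadjusted p was 0.126 without N1 replicate 2, 0.116 without WT replicate 1 and 0.0820 without WT replicate 2 (limma). The L copy, col18a1.L, read 310.3 and 224 in WT and 197 and 258 in N1, with overlap and a log2 difference of 0.23 (95% interval -0.47 to 0.92). The difference between the copies was not tested.

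Type IV collagen, the sheet-forming collagen of every basement membrane, was below the median level on all its probesets. For col4a1.L S1_at the signals were 6.51 and 11.6 in WT and 55.0 and 58.0 in N1. The groups did not overlap and the unadjusted p from limma was 0.00394, with an adjusted p of 0.204. The second probeset of the same copy, col4a1.L A1_at, overlapped between the groups, at 30.6 and 13.8 in WT and 13.5 and 22.2 in N1. All of these values lie near the dim end of the array, where a ratio is poorly measured. The partner chain col4a2.L read 21.3 and 89.8 in WT and 109 and 40.0 in N1 on its brighter probeset, with overlap. Its other probeset read 5.16 and 5.35 in WT and 27.4 and 5.90 in N1, without overlap. The network collagen col8a1.S was dim too, at 13.8 and 48.3 in WT and 43.1 and 50.5 in N1.

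**Figure D4:**
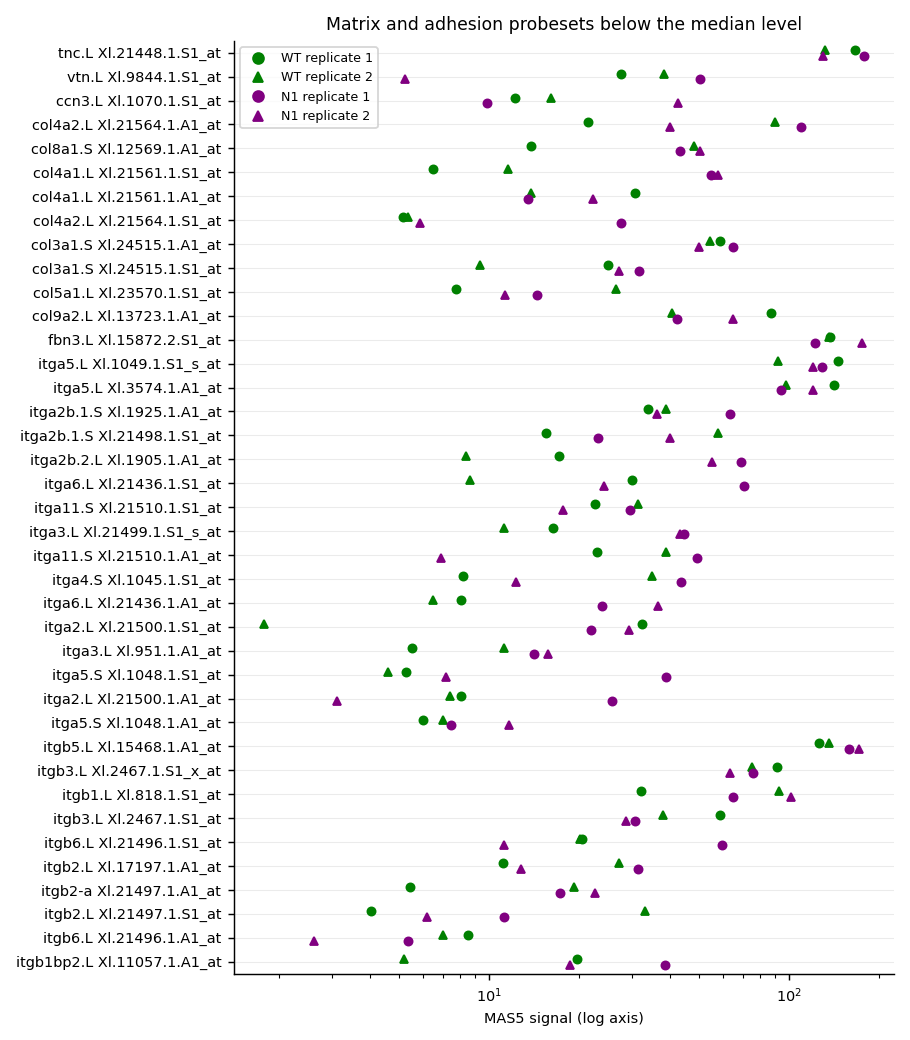
MAS5 signal on each of the 4 arrays (horizontal log axis) for the 39 members below the median level, with marks as in the plot of the 29 brighter members. The marks scatter over a wide range within groups. Both N1 arrays lie above both WT arrays for 10 of the 39 (25.6%), near the 25.3% of all probesets below the median level. The 10 include col4a1.L S1_at, itga2b.2.L and itga6.L A1_at.

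Of the fibrillar collagens, 1 of 7 probesets was higher in N1 at an unadjusted p under 0.05 in limma, against 6.82% of all probesets. Type III collagen, the fine fibrillar collagen of young and healing tissue, read 1680.5 and 2231 in WT and 3526 and 2634 in N1 for the brightest col3a1.S probeset. Both N1 arrays were above both WT arrays at a ratio of 1.57, with an unadjusted p of 0.0169 and an adjusted p of 0.326 from limma. This p was 0.0585 without N1 replicate 1 and 0.191 without WT replicate 1 (limma). Its other 2 probesets were dim: the one ending in A1_at read 58.7 and 54.4 in WT and 64.9 and 50.1 in N1, and the one ending in S1_at read 24.9 and 9.34 in WT and 31.7 and 27.0 in N1.

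Type I collagen is a trimer of alpha 1 and alpha 2 chains and the main collagen of skin and bone. The alpha 1 probeset col1a1.S S1_at read 7408 and 6918 in WT and 10259 and 6979 in N1. Only N1 replicate 1 stood above the WT arrays, and without it the difference was 0.04 in place of -0.24. The second alpha 1 probeset, col1a1.S S2_at, read 3808 and 3764 in WT and 4382 and 4256 in N1, without overlap but with an unadjusted p of 0.281 from limma. For the alpha 2 chain, col1a2.L read 8683 and 8588 in WT and 8486 and 6763 in N1. It was the 1 member at or above the median level whose WT signals both exceeded the N1 ones, at a log2 difference of 0.19 (95% interval -0.23 to 0.60). Type V collagen, which seeds type I fibrils, was dim for col5a1.L, at 7.76 and 26.6 in WT and 14.5 and 11.3 in N1.

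Type VI collagen, the beaded collagen that surrounds cells, showed no separation. The col6a1.L signals were 4369 and 4675 in WT and 4956 and 4407 in N1, with a log2 difference of -0.05 and a 95% interval of -0.44 to 0.34. For col6a2.L they were 2086 and 1494 in WT and 1566 and 1994 in N1, with an interval of -0.52 to 0.51. Those intervals leave room for a difference of the size found for sparc.S. The fibril-associated type IX chain col9a2.L, a collagen of cartilage, was dim and overlapped, at 87.0 and 40.8 in WT and 42.3 and 64.9 in N1.

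Cartilage collagens, which the choice of members leaves out, had the opposite order on 2 of 3 probesets. Type II collagen, col2a1.S, read 1124 and 790.3 in WT and 466 and 689.6 in N1, with an unadjusted p of 0.0251 from limma. For type IX alpha 1, col9a1.L S1_at read 302 and 296 in WT and 99.7 and 107 in N1, with an unadjusted p of 0.000753 and an adjusted p of 0.111 from limma. Both genes are in the cartilage marker list, in which 3 of 6 probesets were higher in WT at an unadjusted p under 0.05 and 0 were higher in N1. The second type IX alpha 1 probeset, col9a1-b, overlapped, at 92.8 and 124 in WT and 97.0 and 96.0 in N1.

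Elastic fibre proteins and the crosslinking enzyme measured with them showed no separation past the threshold. Fibulin-1, a glycoprotein of elastic fibres and basement membranes, read 9061 and 8108 in WT and 7371 and 8432 in N1 for fbln1.L, with overlap. Fibrillin-3, of the microfibril family that also holds BMP and TGF-beta ligands in the matrix, read 6270.1 and 6083 in WT and 6835 and 6127 in N1 for fbn3.L A1_at. The log2 difference was -0.07 with a 95% interval of -0.45 to 0.32, and the dim fbn3.L 2.S1_at overlapped as well. Lysyl oxidase-like 1, which crosslinks elastin, read 834 and 894 in WT and 1069 and 922 in N1 for loxl1.L. The N1 arrays were both higher, with a ratio of 1.15, at an adjusted p of 0.752 in limma.

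Integrins, the receptors for these proteins, were mostly read by dim probesets: 25 of their 28 were below the median level. Probesets of 1 gene copy differed widely in level for itga3.L and itgb1.L, so a dim probeset does not show that the gene was weakly expressed. The alpha 3 chain, which pairs with beta 1 as a laminin receptor of epithelia, was the only alpha chain with a probeset above that level. That probeset, itga3.L S1_at, read 250.4 and 215 in WT and 408 and 428 in N1. The groups did not overlap, at 233 ± 24.8 (SD, n = 2) against 418 ± 14.3 (SD, n = 2). The ratio was 1.80 and the log2 difference -0.85 ± 0.25 (SE), with an unadjusted p of 0.00890 and an adjusted p of 0.263 from limma. Without WT replicate 2 the unadjusted p was 0.0662 (limma). The dimmer itga3.L S1_s_at had the same order, at 16.3 and 11.2 in WT and 44.6 and 43.2 in N1, and so did itga3.L A1_at, at 5.54 and 11.2 in WT and 14.1 and 15.7 in N1. The unadjusted p of itga3.L S1_s_at was 0.0296 in limma, but 0.0803 without N1 replicate 1, 0.0825 without N1 replicate 2 and 0.121 without WT replicate 2.

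Alpha 6, the other main laminin receptor chain of epidermis, was dim on both of its probesets. On itga6.L A1_at the signals were 8.08 and 6.48 in WT and 23.7 and 36.6 in N1, without overlap and with an unadjusted p of 0.0310 from limma. That p was 0.0579 without WT replicate 1, 0.0936 without WT replicate 2 and 0.156 without N1 replicate 2 (limma). On itga6.L S1_at they were 29.8 and 8.60 in WT and 70.9 and 24.1 in N1, with overlap. A chain known from mammalian platelets, itga2b.2.L, read 17.1 and 8.36 in WT and 69.0 and 55.1 in N1, with an unadjusted p of 0.00677 and an adjusted p of 0.241 from limma. The related itga2b.1.S overlapped on both of its probesets, with signals from 15.5 to 63.4. The 4 alpha chain probesets called at an unadjusted p under 0.05, out of 17, thus included 3 with no signal above 69.0. Over all probesets 6.82% were higher in N1 at that level.

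The main fibronectin receptor is alpha 5 paired with beta 1. Of the alpha 5 probesets, itga5.L S1_s_at read 145 and 91.8 in WT and 128 and 120 in N1, and itga5.L A1_at read 141 and 97.7 in WT and 94.3 and 120 in N1. Both overlapped. The S copy was dimmer, with no overlap on either probeset: itga5.S A1_at read 6.0 and 7.02 in WT and 7.44 and 11.6 in N1, and itga5.S S1_at read 5.29 and 4.62 in WT and 38.9 and 7.19 in N1. Beta 1, the chain shared by most matrix receptors, was the only beta chain above the median level. The itgb1.L A1_at signals were 2811 and 2818 in WT and 2748 and 3336 in N1, a log2 difference of -0.11 with a 95% interval of -0.52 to 0.31. The itgb1.S signals were 1963 and 1700.3 in WT and 1899 and 2103 in N1, an interval of -0.55 to 0.29. Both brighter probesets overlapped, and so did the dim itgb1.L S1_at, at 32.0 and 92.8 in WT and 65.2 and 102 in N1. Both limma intervals reach further toward N1 than the difference measured for sparc.S.

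The remaining integrin chains were dim, and 0 of the 11 beta chain probesets had an unadjusted p under 0.05 in limma. Over all probesets 6.82% were higher in N1 and 4.29% higher in WT at that level, so a count of 0 among 11 says little. Beta 3, the vitronectin and platelet receptor chain, was higher on each WT array than on either N1 array for itgb3.L S1_at, at 58.9 and 38.1 in WT and 30.6 and 28.5 in N1. Beta 6, an epithelial chain that activates TGF-beta, had the same order on itgb6.L A1_at, at 8.48 and 7.01 in WT and 5.37 and 2.62 in N1, but not on its other probeset. Beta 5, a second vitronectin receptor chain, read 126 and 136 in WT and 159 and 171 in N1 for itgb5.L, without overlap. The leucocyte chain beta 2, the collagen receptor chains alpha 2 and alpha 11, and alpha 4, a receptor chain for fibronectin and for a vascular adhesion molecule, overlapped on every probeset, with signals between 1.78 and 49.3. The probeset of itgb1bp2.L read 19.6 and 5.20 in WT and 38.6 and 18.5 in N1.

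The N1 arrays did not stand highest for the same genes. Among the 9 genes at or above the median level that were called at an unadjusted p under 0.05, biglycan, type III collagen and SPARC were higher on N1 replicate 1, and fibronectin, CCN2, nidogen-2, type XVIII collagen, TGFBI and integrin alpha 3 were higher on N1 replicate 2. Over the 29 members at or above the median level, 12 were higher on N1 replicate 1, against 3966 of all 7746 such probesets. The largest gaps between the WT arrays were those of tenascin-C and versican.

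**Figure D5:**
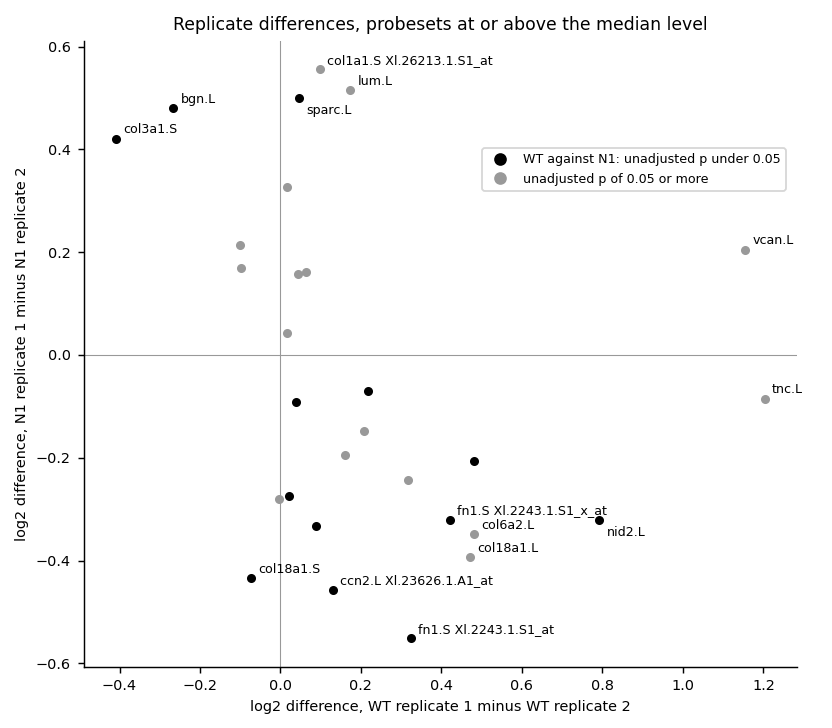
Log2 difference between the N1 replicates (vertical axis) against that between the WT replicates (horizontal axis) for the 29 members at or above the median level. Each point is a probeset, black where WT against N1 had an unadjusted p under 0.05. Versican and tenascin-C lie far to the right, bgn.L, col3a1.S and sparc.L in the upper part with higher signals on N1 replicate 1, and the fn1.S, ccn2.L and nid2.L points in the lower part.

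The enzymes that fold and process collagen showed no shared direction as a list. Of 23 probesets for 15 of the 29 listed genes, 2 were higher in WT and 3 higher in N1 at an unadjusted p under 0.05, and the median difference was -0.01. Hsp47 (serpinh1.S), the collagen chaperone that is also induced by heat shock, read 2209 and 1595 in WT and 895 and 639 in N1. That was 2.48-fold higher in WT without overlap, at an adjusted p of 0.107 in limma. Protein disulphide isomerase, p4hb.L S1_at, which is also a subunit of prolyl 4-hydroxylase, read 6032 and 6595 in WT and 9289.8 and 7944 in N1. The collagen prolyl isomerase fkbp10.L read 3221 and 3106 in WT and 4059 and 4467 in N1. Both had N1 above WT on every array, with adjusted p-values of 0.403 from limma. A further probeset, p4hb.L S2_at, read 437 and 429 in WT and 445 and 639 in N1. The S copy, p4hb.S, had the opposite order, at 1495 and 1178 in WT and 1037 and 1150 in N1.

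The proteins that tie integrins to actin had no shared direction either. Of 25 focal adhesion probesets for 14 of 25 listed genes, 0 were higher in WT and 2 higher in N1 at an unadjusted p under 0.05 in limma, and the median difference was -0.06. The higher ones were a dim probeset of src.S and fermt1.L, the kindlin of epidermis, at 130 and 77.3 in WT and 215 and 191 in N1. Of 24 probesets for other matrix glycoproteins and proteoglycans, from 15 of 47 listed genes, 2 were higher in WT and 5 higher in N1, with a median of -0.29. The smallest p of that list was that of thrombospondin-4, on a dim probeset. It read 8.45 and 13.5 in WT and 157 and 144 in N1 for thbs4.L, at an adjusted p of 0.0536 in limma. The S copy, thbs4.S, was dim too and had the same order, at 17.6 and 22.1 in WT and 48.3 and 56.3 in N1. Syndecan-4, a cell surface proteoglycan that binds fibronectin alongside integrins, read 425 and 724 in WT and 960.0 and 1562 in N1 for sdc4.S, at an adjusted p of 0.235 in limma. Its other copy had the same order on sdc4.L A1_s_at, at 2785 and 2709 in WT and 3450.0 and 4399 in N1, but the other sdc4.L probesets did not share it. Emilin-1, an elastic fibre protein, had the opposite order, at 1419 and 1342 in WT and 1084 and 945 in N1 for emilin1.L.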

How the data were processed

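The authors deposited 1 table of signals (linear intensity values) for 15611 probesets on 4 arrays, made per the labels with MAS5 in GCOS and scaled by the authors. The values of WT replicate 1 have a mean of 500 after trimming 2% at each end. Versions and a genome build are not given in the sources used here. No probe sequences or detection calls were used. Leaving aside 120 control probesets of the manufacturer, 15491 entered the test. The platform annotation gave 1 symbol to 9304 of them, several to 195 and none to 5992. Of the 68 member probesets, 67 matched a RefSeq gene (Xenopus_laevis_v10.1), which was used for names only.

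The limma package 3.58.1 in R 4.3.3 was fitted to log2 signals (lmFit, then eBayes with its trend option). The contrast was WT minus N1. P-values were adjusted over all 15491 probesets by the method of Benjamini and Hochberg, at a threshold of 0.05. Fold changes are ratios of mean linear signals. The fit was tested on simulated data drawn with the model's own fitted spread, which cannot show how it behaves on these 4 arrays. With 2 pools against 2, an exact permutation test of a single probeset cannot go below a two-sided p of 0.333, so only the model across all probesets was used, and the number of arrays limits the precision. Members, role groups and lists were chosen with earlier results of these data known. Every member could be named: values on all arrays were given for up to 4 members of each role group at or above the median level, for the brightest member of each group and for other probesets of those genes, and some dim members were added after their values were seen. The alternatives tried were eBayes without its trend; quantile normalisation; keeping only probesets at or above the median, or the 25th percentile, of all levels; centring each array on its median; adding 16 or 64 to the signals; blocking on replicate number; omitting each array in turn; and counting 1 probeset a gene.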

Additional observations from a re-analysis of the deposited data

How the results depend on the processing

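Over all probesets, calls by adjusted p (2 higher in WT and 17 in N1) were 10 and 58 with a filter at the 25th percentile, 4 and 32 with one at the median, 0 and 0 with no variance trend (limma; 415 and 956 at an unadjusted p under 0.05), 57 and 143 with the replicate block, and 0 to 178 and 0 to 156 with 1 array left out. Calls in N1 were 4 with 64 added and 8 with median centring, which moves the median of all probesets from -0.07 to 0.04. The labels give the arrays a replicate number and do not say what same-numbered arrays share. Their deviations correlated at r = 0.028 over 15491 probesets, which cannot show whether those pools were handled together. The replicate block is therefore not read as a pairing of animals. Of the members, 0 passed the adjusted threshold, but 3 did with the 25th percentile filter (fibronectin probesets), 3 with the replicate block (fibronectin and nid2.L, adjusted p of 0.049 from limma) and 0 to 6 with 1 array left out, the 6 without N1 replicate 2. The 17 of 68 members higher in N1 at an unadjusted p under 0.05 became 11 (16.2%) with no variance trend, against 6.17% of all probesets. They were fewer than 17 whichever array was left out. As 1 probeset a gene they were 9 of 39 (23.1%). The 0 higher in WT became 0 to 3, with 3 without N1 replicate 1. The members' median of -0.38 ranged from -0.497 to -0.186 over all alternatives. No called member reversed in 196 single values, and 32 of those no longer had an unadjusted p under 0.05. Most of the 196 could not have reversed, because all 17 called members had both N1 arrays above both WT arrays. Leaving out 1 array or adding a constant keeps that order. The level filters, the block and the fit without trend leave the difference unchanged. Only quantile normalisation and median centring could have reversed a called member. The members that follow had no unadjusted p under 0.05 with all arrays. Of 192 single values for the 16 uncalled members at or above the median level, 5 had an unadjusted p under 0.05 in limma: tnc.L (0.0056) and vcan.L (0.0286) without WT replicate 1, col1a1.S (0.00247) and sparc.S (0.00823) without N1 replicate 2, and col1a2.L (0.0168) without N1 replicate 1. Some log2 differences changed sign without an unadjusted p under 0.05. With median centring the log2 difference was 0.00332 for itgb1.L, 0.0417 for fbn3.L, 0.0607 for col6a1.L, 0.101 for lum.L and 0.108 for col6a2.L. With quantile normalisation the log2 difference of lum.L was 0.0314. With 1 array left out the differences ran from -1.05 to 0.153 for tnc.L, -0.796 to 0.359 for vcan.L, -0.519 to 0.0368 for col1a1.S, -0.00872 to 0.461 for col18a1.L, -0.246 to 0.0341 for itgb1.L, -0.146 to 0.0115 for fbn3.L, -0.133 to 0.0363 for col6a1.L, -0.266 to 0.25 for lum.L and -0.242 to 0.239 for col6a2.L. The causes were not tested. Where a group is left with 1 array, it is assumed to vary like the other group. Member counts from those fits are therefore read only beside the share of all probesets called in the same fit. Without N1 replicate 1, the share of members higher in WT at an unadjusted p under 0.05 (limma) was below that of all probesets. The share of members higher in N1 at that level was above that of all probesets whichever array was left out. The 39 dim members are limited by signals near the floor of the arrays.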
